A study of Mus musculus with 4 samples.

Results

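Accessible chromatin was examined at 10 genes of the circadian clock, Per1, Per2, Cry1, Cry2, Clock, Arntl, Nr1d1, Nr1d2, Bhlhe40 and Dbp, in mouse neutrophils with and without the long non-coding RNA Morrbid. Members were all consensus peaks of the deposited ATAC-seq table that its annotation gives to one of these genes by the nearest transcription start site (TSS), which came to 20 of 23595 peaks. ATAC-seq uses the Tn5 transposase to insert adapters into open chromatin, so the signal of a peak reports how accessible that site was. All 4 libraries came from non-cultured neutrophils, short-lived phagocytes, that were flow sorted from bone marrow. The KO group (n = 2) was Morrbid deficient on a C57BL6 background with no treatment, and the WT group (n = 2) was untreated C57BL6. The labels describe 50000 cells per genotype transposed in duplicate and do not mention separate animals, so each p-value reflects the spread of these libraries alone, which may be technical. The sources used here do not give the animals' age and sex, the making of the Morrbid allele or the time of day of collection.

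The mammalian clock is a feedback loop of transcription. CLOCK and BMAL1, the product of Arntl, bind E-boxes as a pair and activate the Per and Cry genes, whose proteins return to the nucleus and repress that pair. In a second loop the nuclear receptors encoded by Nr1d1 and Nr1d2 (REV-ERB alpha and beta) repress Arntl through ROR elements. Bhlhe40 encodes a further E-box repressor, and Dbp an activator at D-boxes that is itself driven through E-boxes. In mouse neutrophils the clock is known to time the ageing of the cells in the blood, with BMAL1 acting upstream of Cxcl2 and its receptor CXCR2.

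The promoter sequences were searched for the elements through which this loop is known to work, and 7 of 12 held at least 1 match. RefSeq promoters (build GRCm38.p6, 250 bases before to 50 after each start) were found for 8 of the 10 genes, 12 sequences in all, and not for Per2 and Bhlhe40. Motifs were searched on both strands: the E-box CACGTG, the related E-prime box CACGTT, the D-boxes TTATGTAA and TTACGTAA, and the ROR element core AGGTCA with its longer form TAGGTCA, which contains the core. Printed below are the promoters of the 3 genes whose promoter peak changed in KO, and that of Cry1, whose promoter peak had the highest signal of the set before division by peak length and was not called. Capitals mark the motif matches, read 5′ to 3′ on the strand of the gene.

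Per1, upstream of its 2 listed starts (chr11:69098699-69098998, plus strand): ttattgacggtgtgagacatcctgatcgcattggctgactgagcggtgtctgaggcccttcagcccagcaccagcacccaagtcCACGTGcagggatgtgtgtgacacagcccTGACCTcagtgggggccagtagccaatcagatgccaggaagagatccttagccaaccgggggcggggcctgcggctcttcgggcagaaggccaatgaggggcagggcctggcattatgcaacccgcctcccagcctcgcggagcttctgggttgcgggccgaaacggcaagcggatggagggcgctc

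Arntl, downstream of its 2 listed starts (chr7:113207261-113207560, plus strand): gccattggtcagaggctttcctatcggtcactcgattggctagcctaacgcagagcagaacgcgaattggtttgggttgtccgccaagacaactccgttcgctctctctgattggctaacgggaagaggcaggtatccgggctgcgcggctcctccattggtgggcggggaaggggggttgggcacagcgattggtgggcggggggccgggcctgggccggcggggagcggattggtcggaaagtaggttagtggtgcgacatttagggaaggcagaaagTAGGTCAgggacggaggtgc

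Nr1d2 (chr14:18239057-18239356, minus strand): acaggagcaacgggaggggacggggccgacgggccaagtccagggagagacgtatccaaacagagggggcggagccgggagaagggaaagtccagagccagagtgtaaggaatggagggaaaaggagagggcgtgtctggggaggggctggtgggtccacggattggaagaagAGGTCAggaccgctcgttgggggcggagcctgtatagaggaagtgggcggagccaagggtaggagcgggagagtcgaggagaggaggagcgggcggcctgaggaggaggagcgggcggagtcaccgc

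Cry1 (chr10:85185005-85185304, minus strand): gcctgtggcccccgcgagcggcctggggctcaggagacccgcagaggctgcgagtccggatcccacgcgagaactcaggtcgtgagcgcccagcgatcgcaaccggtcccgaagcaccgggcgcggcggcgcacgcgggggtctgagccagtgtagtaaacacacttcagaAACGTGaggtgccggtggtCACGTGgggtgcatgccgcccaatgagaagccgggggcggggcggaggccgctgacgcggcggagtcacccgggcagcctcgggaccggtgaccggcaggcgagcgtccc

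In the Per1 promoter the E-box began 166 bases before the start (position -166) and a reversed ROR core at -137. The Arntl promoter held the longer ROR form at position 31 after the start, and the Nr1d2 promoter a ROR core at -77. Cry1 carried an E-box at -60 and a reversed E-prime box at -79. Over the 12 sequences, the E-box stood in 2 (Per1, Cry1), against 7.15% of all 32851 promoters of the table. The E-prime box stood in 3 (Cry1, Cry2, Nr1d1; 4.68% of all promoters) and the ROR core in 4 (Per1, Clock, Arntl, Nr1d2; 16.3%). The longer ROR form stood in 1, the second Arntl promoter (2.61%), and neither D-box (0.938% and 0.119%) was found. The Dbp promoter matched none of these letters in this window. These matches are a description of sequence and do not show binding. Peak coordinates below are those of the deposited table, in mm9, and cannot be laid over the GRCm38.p6 positions above.

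Depth followed genotype. Every value of a library was a whole multiple of 1 step, and the steps in peaks, which would be reads if 1 step is 1 read, numbered 6182922 and 7930547 in KO replicates 1 and 2 against 3577922 and 3803711 in WT replicates 1 and 2. At the clock gene peaks a library held from 25 to 1976 steps. The identity of the KO libraries was checked at Morrbid, listed as Gm14005, where the peak 95197 bp into the gene had a signal of 0.883 and 0.693 in KO and 166 and 154 in WT. Of 15 neutrophil markers 14 had a peak, all but Ly6g, with a summed signal of 9651 to 9908 in KO and 8413 to 9815 in WT. Of 5 precursor markers only Gfi1 had one (377 to 384 in KO, 457 to 558 in WT), and Mpo, Elane, Prtn3 and Ctsg had none. Of 7 monocyte or macrophage gene symbols searched 4 had a peak, namely Ccr2, Csf1r, Cx3cr1 and Emr1. The 7 include Adgre1, another symbol of the gene Emr1. The summed signal was 646.4 in both KO libraries and 653 to 759 in WT. Cd3d was the only T cell marker and Ebf1 the only B cell marker with a peak, neither at a promoter. The part of these precursor and monocyte values in the results below was not tested. In such bulk samples fewer cells of a type and less accessibility per cell cannot be told apart.

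All 10 clock genes had at least 1 peak in neutrophils. Per gene there were 4 peaks at Cry1, 3 each at Per1 and Per2, 2 each at Arntl, Bhlhe40 and Dbp, and 1 each at Cry2, Clock, Nr1d1 and Nr1d2. Promoter peaks, annotated as such or centred within 1000 bp of a TSS, numbered 10 and covered 9 genes. The exception was Nr1d1, whose only peak was centred 1368 bp into the gene. The other 10 peaks lay in introns or between genes. The median signal was 278 over the 20 peaks and 123 over all peaks, and 5 of the 20 lay in the top decile of signal. Of the intergenic peaks 2, at Arntl and Cry1, lay in LINE repeats.

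Compared per kb of peak length, the mean signal of the promoter peaks over the 4 libraries ran from 231 at Clock to 991 at Per1. In order they were Per1 at its upstream start, Cry1 (913), Per2 (703), Cry2 (695), Dbp (501), Per1 at its downstream start (472), Nr1d2 (435), Arntl (430), Bhlhe40 (407) and Clock. The ranges over libraries of neighbours in this order overlapped except between Cry1 and Per2, between Cry2 and Dbp, and between Bhlhe40 and Clock. Of all 20 peaks the intergenic one 3936 bp upstream of Per1 had the highest signal per kb (1487). Among the promoter peaks the 4 highest were those of Per1 (upstream start), Cry1, Per2 and Cry2, and the lowest was that of Clock. The order did not divide by role, since the repressors Nr1d2 (435) and Bhlhe40 (407) lay beside the activator Arntl (430).

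**Figure D1:**
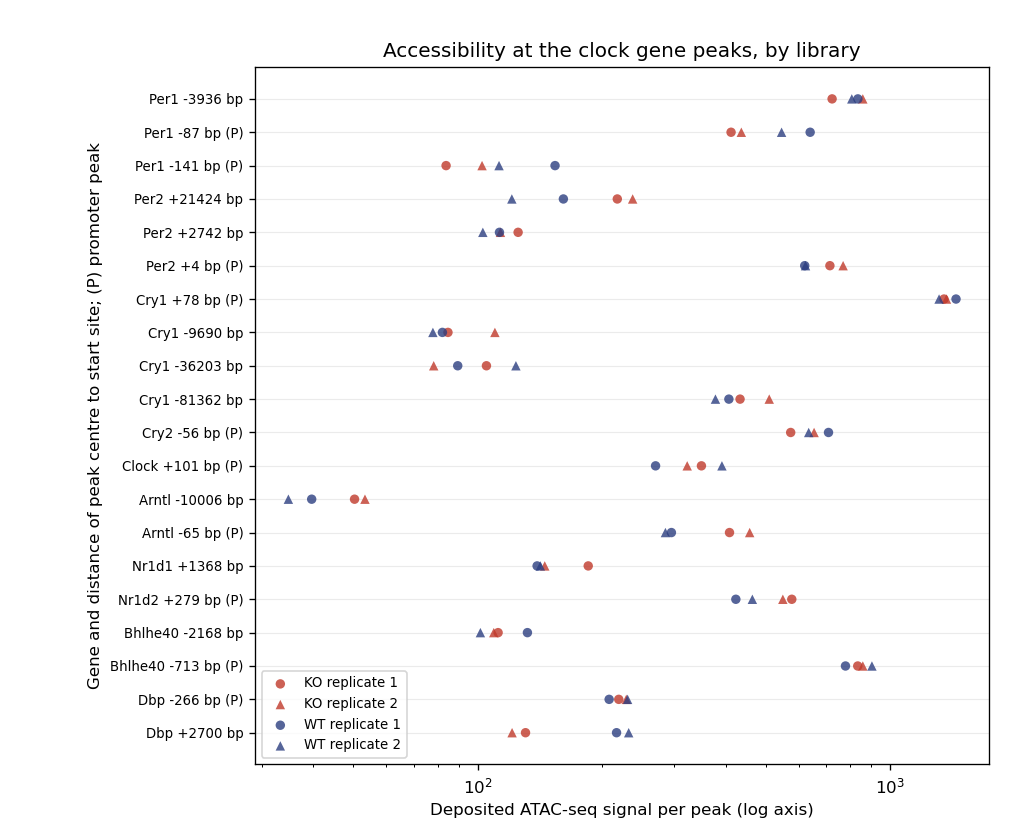
Deposited ATAC-seq signal (horizontal log axis) at the 20 peaks of the clock genes, with each library as a point (red KO, blue WT; circles replicate 1, triangles replicate 2) and (P) marking promoter peaks. Red and blue points separate most clearly at Dbp +2700 bp, where WT lies at 217 and 232 and KO at 131 and 121, and at Arntl -65 bp, where KO lies at 408 and 457 and WT at 295 and 285.

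Between genotypes, 3 of the 20 clock gene peaks were higher in KO and 2 were lower, with 15 not called. Those higher were the promoters of Arntl and Nr1d2 and an intronic peak of Per2, and those lower were the upstream Per1 promoter and an intronic peak of Dbp. The test was limma on log2(signal + 1) across all peaks, with Benjamini-Hochberg adjustment and a call at an adjusted p below 0.05. The same test called 6.08% of all peaks higher and 4.55% lower, so the clock genes' share rests on few peaks against a background of this size. Among the 10 promoter peaks 2 were higher and 1 was lower, where 7.6% and 5.8% of all promoter peaks were called. KO and WT values did not overlap at 12 of the 20 peaks, against 55.3% of all peaks, so this total is near the background. KO was higher at 9 of the 12 and lower at 3, where all peaks without overlap split 6612 to 6431. Those in the top decile of signal split 1441 to 238, so this split also depends on signal. The median log2 fold change of the 20 peaks was 0.04 (KO over WT), beside -0.00189 over all peaks. With the libraries scaled to equal totals the medians were -0.02 and -0.06, since that scaling moves the peaks of a library alike. The background itself rose with signal. Over all peaks the median went from -0.11 in decile 2 of signal to 0.15 in decile 10. In these 2 deciles 1.06% and 24.9% of peaks were called higher, and 4.66% and 2.03% lower. Of the 20 peaks, 5 lay in decile 9 and 5 in decile 10. Shares and medians over all peaks are thus not backgrounds of like signal.

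**Figure D2:**
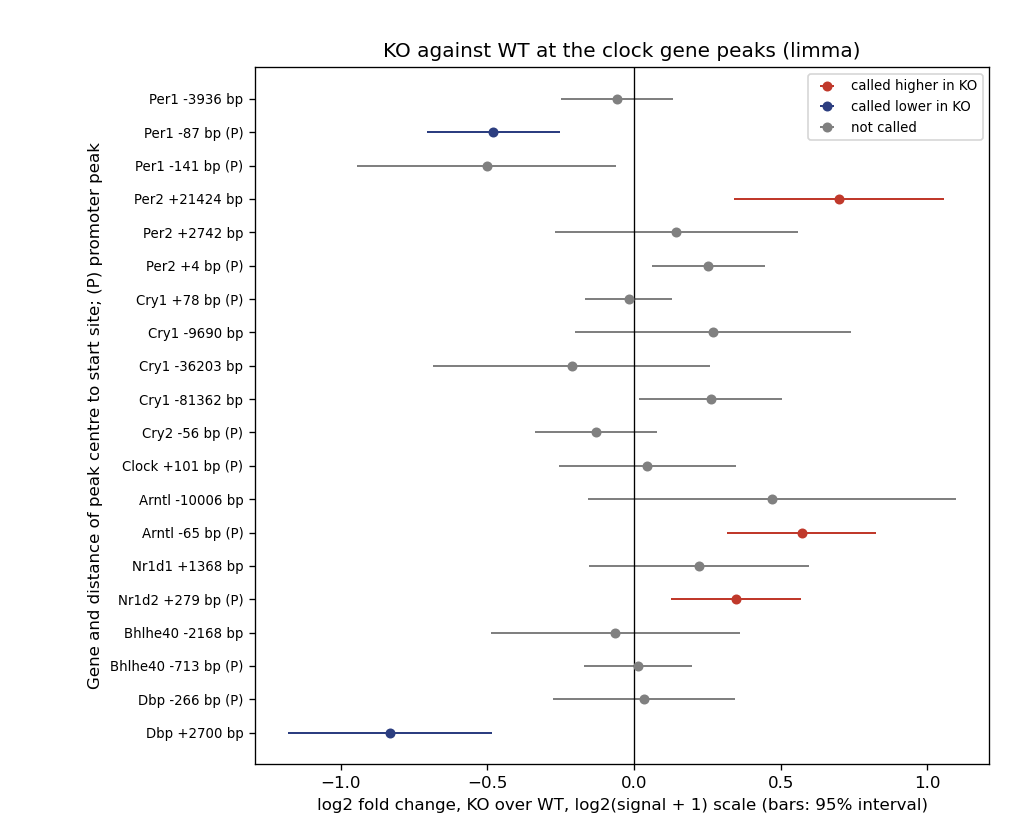
log2 fold change of KO over WT (horizontal axis, log2(signal + 1) scale) at each of the 20 peaks, with bars for the 95% interval from limma, red for peaks called higher in KO, blue for lower and grey for not called. The 5 coloured peaks run from -0.83 at the Dbp intron to 0.70 at the Per2 intron.

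Of the activators, Arntl was more accessible in KO at its promoter. This gene encodes BMAL1, the partner that CLOCK needs to bind E-boxes. Its promoter peak, on chromosome 7 at 120350495 to 120351333 and centred 65 bp upstream of the TSS, had a signal of 408 and 457 in the KO libraries and 295 and 285 in the WT libraries. Both KO values lay above both WT values, and the KO mean was 1.49-fold higher (432 ± 34.4 against 290 ± 6.84, SD, n = 2 each; log2 fold change 0.57, SE 0.124, limma's adjusted p = 0.00437). Among all peaks of like mean signal (decile 9 of 10), 10.1% of peaks were called higher. Leaving out KO replicate 2 ended the call (log2 fold change 0.49, adjusted p = 0.208). A weak intergenic peak 10006 bp upstream, in a LINE repeat, had a signal of 50.3 and 53.3 in KO and 39.6 and 34.8 in WT. It was not called (adjusted p = 0.343; log2 fold change 0.47, SE 0.305), and at 25 and 27 steps in WT it was the least deeply covered of the set. Of the 2 listed Arntl promoters, the one printed above holds the longer form of the ROR element, through which the REV-ERB receptors are known to repress this gene, and whether the peak covers that match was not tested.

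The single peak of Clock, the other activator, was not called. It spans the start and the 5′ UTR at 76732751 to 76734193 of chromosome 5. Its signal was 349 and 322 in KO and 270 and 391 in WT, so that the KO values lay between the WT values. The log2 fold change was 0.04 with a 95% interval from -0.26 to 0.35, and the spread of the WT pair (SD 85.6) was the widest of the promoter peaks in relation to its mean.

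Of the Period genes, repressors of the loop, Per1 had a called loss and Per2 a called gain. At Per1 the upstream promoter lost accessibility in KO. This peak, on chromosome 11 at 68912116 to 68912627 and centred 87 bp upstream of the TSS, had a signal of 412 and 436 in KO and 640 and 546 in WT. WT was higher in both libraries, by 1.40-fold in the mean (593 ± 66.7 against 424 ± 17.2; log2 fold change -0.48, SE 0.111, limma's adjusted p = 0.00682). The second promoter, at 68913400 to 68913638, read 83.9 and 102.5 in KO and 154 and 113 in WT. Its log2 fold change was of like size (-0.50) but with a wider error (SE 0.215), and it did not pass (adjusted p = 0.132). It passed without WT replicate 2 (log2 fold change -0.73, adjusted p = 0.0145). The intergenic peak 3936 bp upstream, at 68908252 to 68908792, read 723 and 858 in KO and 835 and 807 in WT and was not called (log2 fold change -0.06, 95% interval -0.25 to 0.13). The call at the upstream promoter was lost without KO replicate 1 (log2 fold change -0.44, adjusted p = 0.138) and without KO replicate 2 (-0.52, adjusted p = 0.0665). In decile 9 of mean signal, which holds the upstream promoter peak, 2.54% of all peaks were called lower. Per1 lies on chromosome 11, whose 1491 peaks had a median log2 fold change of -0.13, with 9.73% called lower. None of the 8 peaks of other genes within 50 kb was called, with a median log2 fold change of -0.02. Their log2 fold changes ran from -0.42 at Vamp2 to 0.09 at Aurkb. The Vamp2 peak, at the start of that gene, was the nearest of the 8, 5632 bp away (limma's adjusted p = 0.0813).

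At Per2 an intronic peak gained accessibility in KO. It lies in intron 9 of 22, on chromosome 1 at 93334126 to 93334837, 21424 bp into the gene. The signal was 218 and 238 in KO and 161 and 121 in WT, with both KO libraries above both WT libraries. The mean rose 1.61-fold, to 228 ± 13.8 from 141 ± 28.5 in WT (log2 fold change 0.70, SE 0.174, limma's adjusted p = 0.0115), which was the largest positive change of the set. Among all peaks of like mean signal (decile 7 of 10), 4.96% of peaks were called higher. The call was lost without KO replicate 1 (log2 fold change 0.76, adjusted p = 0.0846) and without KO replicate 2 (0.64, adjusted p = 0.217). The Per2 promoter peak, at 93355417 to 93356385, read 714 and 769 in KO and 621 and 624 in WT. The groups did not overlap, but the change was small (log2 fold change 0.25, SE 0.0937) and missed the threshold (adjusted p = 0.0827). It passed under median centring (log2 fold change 0.32, adjusted p = 0.025), without WT replicate 1 (0.25, adjusted p = 0.048) and without WT replicate 2 (0.26, adjusted p = 0.049). The peak in intron 1, 2742 bp into the gene, had a log2 fold change of 0.14 (adjusted p = 0.693). No peak of the 3 assigned to other genes within 50 kb was called.

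The Cryptochrome genes, whose proteins form the repressor complex with PER, had no called peak. The Cry1 promoter, at 84646972 to 84648470 of chromosome 10, had the highest signal of the set, though not the highest per kb, at 1350 and 1369 in KO and 1444 and 1314 in WT. Its log2 fold change was -0.02 with a 95% interval from -0.17 to 0.13, the narrowest of the 20. The Cry2 promoter, at 92273821 to 92274744 of chromosome 2, read 574 and 654 in KO and 709 and 635 in WT (log2 fold change -0.13, 95% interval -0.34 to 0.08, limma's adjusted p = 0.439). A further 3 intergenic peaks were assigned to Cry1. The farthest, 81362 bp upstream at 84728609 to 84729713, had a signal of 433 and 509 in KO and 407 and 377 in WT. The groups were apart there, but with a log2 fold change of 0.26 the peak was not called (adjusted p = 0.156). The others, 9690 and 36203 bp upstream, had log2 fold changes of 0.27 and -0.21 with adjusted p of 0.488 and 0.596.

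Of the REV-ERB receptors of the second loop, Nr1d2 was more accessible in KO. Its single peak spans the start and the 5′ UTR, on chromosome 14 at 19070764 to 19071919. It read 578 and 549 in KO and 423 and 463 in WT, so KO was higher in both libraries. The mean was 1.27-fold higher (563 ± 19.9 against 443 ± 28.8; log2 fold change 0.35, SE 0.107, limma's adjusted p = 0.0381). This was the smallest of the called changes and the closest to the threshold. In decile 9 of mean signal, which holds this peak, 10.1% of all peaks were called higher. It was lost under total scaling (log2 fold change 0.29, adjusted p = 0.0814), under cyclic loess (0.25, adjusted p = 0.158), and without KO replicate 1 (0.31, adjusted p = 0.387), KO replicate 2 (0.38, adjusted p = 0.269) or WT replicate 1 (0.28, adjusted p = 0.0507). Nr1d1 had 1 peak, in a CpG-rich stretch of intron 1 at 98635161 to 98635486 of chromosome 11. Its signal was 185 and 145 in KO and 139 and 142 in WT, and KO replicate 2 lay only just above the WT pair (log2 fold change 0.22, 95% interval -0.15 to 0.60, adjusted p = 0.469). The 5 peaks of other genes within 50 kb of it, at Med24, Thra, Msl1 and Casc3, had a median log2 fold change of -0.40, and none was called.

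The E-box repressor Bhlhe40 (DEC1) had no called peak. Its long promoter peak, at 108608875 to 108610945 of chromosome 6, read 834 and 858 in KO and 779 and 903 in WT. The KO values lay between the WT values (log2 fold change 0.01, 95% interval -0.17 to 0.20). The peak 2168 bp upstream, which lies in an intron of another transcript, had a signal of 112 and 109 in KO and 132 and 102 in WT (log2 fold change -0.06, limma's adjusted p = 0.878).

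Dbp, an output gene of the clock, lost accessibility in KO inside the gene. The peak lies in intron 2 of 3, on chromosome 7 at 52963053 to 52963581, 2700 bp downstream of the TSS. It had a signal of 131 and 121 in KO and 217 and 232 in WT, with the groups well apart. The WT mean was 1.78-fold higher (225 ± 10.8 against 126 ± 6.68; log2 fold change -0.83, SE 0.169, limma's adjusted p = 0.00256). This was the largest change of the set in either direction and ranked 399 by p among all 23595 peaks. Among all peaks of like mean signal (decile 7 of 10), 5.55% of peaks were called lower. In mouse liver, CLOCK and BMAL1 are known to bind E-boxes within introns of Dbp as well as at its promoter. The promoter peak, at 52960131 to 52960572, read 220 and 229 in KO and 208 and 231 in WT. Its log2 fold change was 0.03, and its 95% interval (-0.28 to 0.34) did not overlap that of the intronic peak (-1.18 to -0.48), though the difference between both peaks was not tested. Leaving out KO replicate 2 ended the call at the intronic peak (log2 fold change -0.78, adjusted p = 0.0679). None of the 3 peaks of other genes within 50 kb, at Fut2, Sphk2 and Rpl18, was called (median log2 fold change -0.11).

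**Figure D3:**
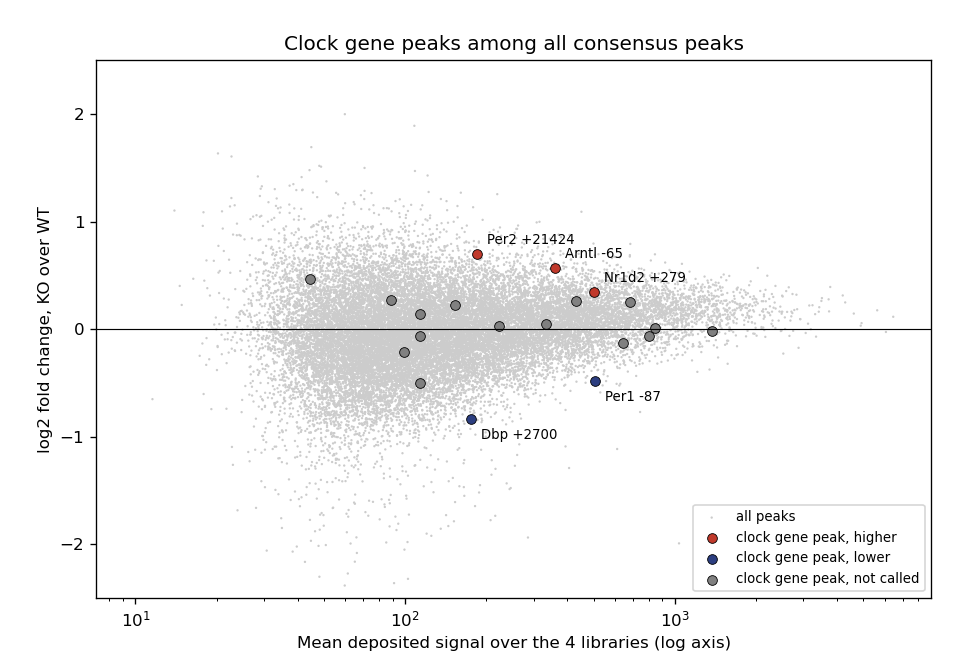
log2 fold change of KO over WT against the mean deposited signal over the 4 libraries (log axis) for all peaks (grey; 10 lie beyond the vertical range of ± 2.5), with the 20 clock gene peaks as large points coloured by call. Per1 -87 bp and Nr1d2 +279 bp have like mean signal (508 and 503) and lie on opposite sides of 0, at -0.48 and 0.35.

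When the signal was summed over all peaks of a gene and fitted over all 11693 genes, 3 clock genes were higher in KO and 2 were lower, where 10.8% and 8.26% of all genes were called. These are the genes of the called peaks, and the sums hold the same values, so they are no second line of support. Per2 rose to 1089 ± 44.1 from 871 ± 33.7 in WT (log2 fold change 0.32, limma's adjusted p = 0.00523). Arntl rose to 484 ± 36.5 from 327 ± 10.3 in WT (0.56, adjusted p = 0.000937). Nr1d2, with a single peak, had a log2 fold change of 0.35 (adjusted p = 0.02). Per1 fell to 1308 ± 126 from 1547 ± 116 (log2 fold change -0.24, adjusted p = 0.0222) and Dbp from 445 ± 26.8 to 351 ± 0.00261 (-0.34, adjusted p = 0.0377). Under median centring both losses missed the threshold, at adjusted p of 0.0775 for Per1 and 0.0707 for Dbp. Without KO replicate 1 the sums of Per1, Per2, Nr1d2 and Dbp were no longer called (log2 fold changes -0.15, 0.36, 0.31 and -0.34), and without KO replicate 2 those of Per2, Arntl, Nr1d2 and Dbp (0.28, 0.48, 0.38 and -0.34). The Per1 loss was also lost without WT replicate 1 (-0.17) and the Dbp loss without WT replicate 2 (-0.28). Under cyclic loess the gains of Per2 (0.21) and Nr1d2 (0.28) were not called, and under total scaling that of Nr1d2 was not (0.29, adjusted p = 0.0512). In limma without a trend none of the 5 sums was called.

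Of the 13 alternatives, 4 leave the fold change of a peak as it is (no filter, a mean signal above 100, no trend, the replicate block). In the other 9 the 5 called peaks kept their sign, but not always their calls. In limma without a mean-variance trend none of the 20 clock gene peaks passed, with 3 higher and 2 lower at an unadjusted p under 0.05. That fit called 0 peaks higher and 22 lower over the whole table. Without KO replicate 2 likewise none passed (3 and 3 at an unadjusted p under 0.05), and without KO replicate 1 only Arntl and the Dbp intron did. In these fits the lone KO library is assumed to vary like the WT pair.

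**Figure D4:**
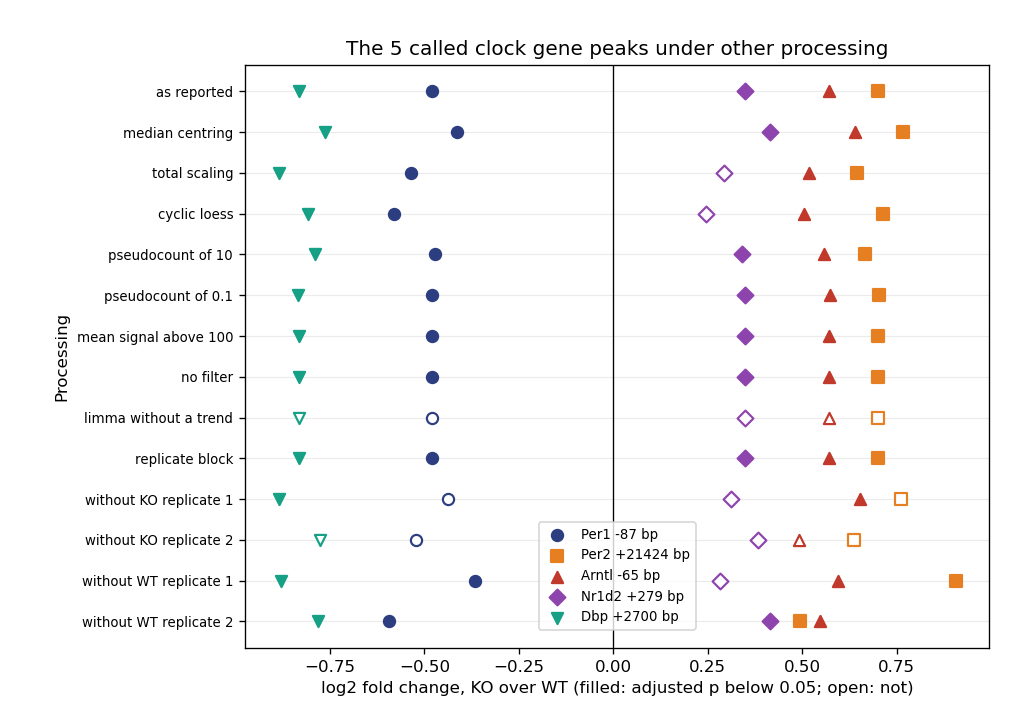
log2 fold change of KO over WT (horizontal axis) of the 5 called clock gene peaks as reported and in 13 alternatives (rows); filled symbols have an adjusted p below 0.05 and open symbols do not. Each peak stays on its side of 0, from -0.89 to -0.76 for the Dbp intron and from 0.25 to 0.41 for Nr1d2, and all 5 symbols are open without a trend and without KO replicate 2.

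Beyond the core loop, a list of 34 symbols of further clock genes was searched, of which 26 had a peak. Of their 45 peaks, 1 was higher, 2 were lower and 42 were not called, with a median log2 fold change of 0.05 (6.08% of all peaks were called higher and 4.55% lower). The counts moved with the processing. The higher peaks numbered 4 under median centring, 0 under cyclic loess and, without 1 library, from 0 to 5, the most without WT replicate 2. The lower peaks numbered 5 under total scaling and, without 1 library, from 1 to 5, the most without WT replicate 1. In limma without a trend both counts were 0. A peak 74458 bp upstream of Nampt, the rate-limiting enzyme of NAD salvage and a known clock target, rose to 389 ± 0.0366 from 282 ± 11.6 in WT (log2 fold change 0.46, limma's adjusted p = 0.0194). That peak lies in a LINE repeat and was given to Nampt by the nearest TSS. The stronger peak at the Nampt start, with a mean signal of 1431, was not called (log2 fold change 0.17, adjusted p = 0.104), nor was any other Nampt peak. A promoter peak of the deubiquitinase gene Usp2, which is rhythmic in many mouse tissues, fell from 163 ± 19.2 to 101 ± 4.11 (-0.67, adjusted p = 0.0257). Fbxl15, encoding an F-box protein, fell near its start from 229 ± 12.6 to 120 ± 13.4 (-0.93, adjusted p = 0.00116). The calls at Nampt and Usp2 were lost without either KO library (log2 fold changes 0.46 and 0.46, and -0.71 and -0.63) and under cyclic loess (0.40 and -0.62), and that at Usp2 also without WT replicate 1 (-0.55). The promoter of Per3, the third Period gene, was not called (adjusted p = 0.0872; log2 fold change 0.22). No peak was listed under the symbols Npas2, Rora or Ciart. The list also holds Chrono, another name of the gene Ciart, likewise without a peak. Other symbols of Ciart were not searched, so a peak listed under one of them would have been missed.

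Among 9 genes of clock-timed neutrophil ageing and homing, 8 had peaks, 38 in all, of which 1 was higher, 2 were lower and 35 were not called, beside 6.08% and 4.55% of all peaks, so that these counts do not set the list apart. Without WT replicate 1 there were 4 higher and 2 lower, without KO replicate 2 there were 0 of either, and in limma without a trend likewise 0. The promoter of Cxcr2, the receptor that promotes ageing, had a log2 fold change of 0.01 (limma's adjusted p = 0.992), and that of its ligand gene Cxcl2, a known BMAL1 target, -0.09 (adjusted p = 0.581). The peak at the start of Cxcr4, the receptor that holds neutrophils in the marrow, fell to 1043 ± 15.4 from 1276 ± 86.2 in WT (log2 fold change -0.29, adjusted p = 0.0168). A weak promoter peak (decile 2 of 10 in signal) of Itgb2, the beta chain of the leukocyte integrins, fell from 80.2 ± 11.1 to 39.4 ± 11.9 (-1.03, adjusted p = 0.0227). The strongest Itgb2 peak, in exon 8, read 518 and 487 in KO and 455 and 390 in WT. It was not called (log2 fold change 0.25, adjusted p = 0.152), nor was the peak in intron 1 (0.04). A peak 24352 bp from the TSS of Tlr4, the endotoxin receptor, rose to 284 ± 26.1 from 174 ± 15.7 in WT (0.70, adjusted p = 0.0044). Without KO replicate 2 the calls at Cxcr4, the Itgb2 promoter and Tlr4 were lost (log2 fold changes -0.27, -1.34 and 0.61 in this order). Without KO replicate 1 those at Cxcr4 (-0.30) and the Itgb2 promoter (-0.73) were lost, and under median centring that at Cxcr4 (-0.22).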

How the data were processed

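The table analysed holds 1 normalised signal per library for each of 23595 consensus peaks. The authors made this signal from ATAC-seq reads, and the submitters' processing notes list build mm9, BWA, Trimmomatic 0.32, bcl2fastq 2.16.0, HOMER, DiffBind, MACS2 2.1.0 and R 3.1.1 without order or role. How the deposited signal was scaled, whether duplicates were removed or reads shifted for Tn5, and how consensus peaks were chosen is not given in the sources used here. In each library all values were whole multiples of 1 step (tolerance 0.001, largest deviation 7.23e-07). No count model was used, because the size of 1 read cannot be fixed from the low values, and the planned edgeR and DESeq2 alternatives were not run. Depths (steps in peaks) are given in the report.

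KO was compared with WT with R 4.3.3 and limma 3.58.1 (mean-variance trend, empirical Bayes, two-sided; genotype as only term) on log2(signal + 1) over all peaks, and over all genes after summing peaks. Requiring a mean signal above 1 removed 0 peaks. A pseudocount of 1 understates the change of weak peaks. Depth per library limits precision most in WT. If 1 step is 1 read, replicates differed beyond sampling noise (KO pair 2.21 and WT pair 2.54 in chi-square per degree of freedom, computed on steps). They were kept as separate libraries. Text names all clock gene peaks, and of the 2 other lists those called plus a few chosen for their role after values were seen. Members and lists were chosen with earlier results of these data known. Of the list of further clock genes, 2 genes are not reported here and are left out of its counts. Promoter sequences are from RefSeq (GRCm38.p6). Figures were drawn with matplotlib 3.10.9.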

Additional observations from a re-analysis of the deposited data

How the results depend on the processing

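The counts of 3 higher and 2 lower clock gene peaks held under both other pseudocounts, without a filter and with a mean signal above 100. Over all peaks, calls split 57.2% higher as deposited, 74.3% under median centring and 40% under total scaling; clock gene peaks split 4 to 2 and 2 to 2 in the same order. Without a trend both counts were 0, for peaks and for summed genes (genes at an unadjusted p under 0.05 were 3 higher and 1 lower). Leaving out 1 library gave 0 to 4 higher and 0 to 3 lower peaks, and 0 to 3 higher and 0 to 1 lower genes. Cyclic loess left 1 gene higher and median centring 0 lower (2 lower at an unadjusted p under 0.05). The cause of these shifts was not tested, other than that fits without a library rest on fewer samples. Signs turned in 7 uncalled peaks. Leaving out 1 library took Bhlhe40 -2168 bp from -0.25 to 0.12, Bhlhe40 -713 bp from -0.094 to 0.12, Clock from -0.22 to 0.31, Cry1 -36203 bp from -0.45 to 0.019, Cry1 +78 bp from -0.087 to 0.049, Dbp -266 bp from -0.041 to 0.11 and Per1 -3936 bp from -0.18 to 0.064 (log2 fold changes). Median centring and total scaling moved the peaks almost alike (median of all peaks from -0.0019 to 0.065 and -0.056), so that turns under them at values near 0 follow from the scaling itself. Median centring gave 0.0030 for Bhlhe40 -2168 bp, 0.048 for Cry1 +78 bp and 0.0075 for Per1 -3936 bp. Total scaling gave -0.042 for Bhlhe40 -713 bp, -0.010 for Clock and -0.022 for Dbp -266 bp. Cyclic loess gave 0.0016 for Bhlhe40 -2168 bp, -0.13 for Bhlhe40 -713 bp and -0.016 for Clock.

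With the replicate number as a block, 3 clock gene peaks were higher and 2 lower, and no call of a clock gene peak changed. The numbers are only labels: deviations of same-numbered libraries from their group means had a correlation of -0.0392 across peaks, which are not independent, over 2 pairs. Depth limits weak peaks most, such as Arntl -10006 bp with 25 steps in a WT library.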
